A study of Mus musculus with 10 samples.

Results

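The 39 interferon-stimulated genes described here, genes that cells switch on when interferons bind their receptors, were chosen by symbol as antiviral type I genes, interferon-induced GTPase genes and the type I receptor chains. The choice was made with earlier results of these data known, so counts of members set beside all genes are a description and no test. Of the 39, 35 had a probe set named for that gene alone, out of 22180 genes so measured. The other 4 were not analysed here: the probe sets of Oas1a, Gbp2 and Dtx3l also carry the symbol of a related or neighbouring gene, and no probe set was named for Ifi44. By role, the 35 comprise 2 receptor chains, 3 transcription factors, 4 nucleic acid sensors, 17 antiviral effectors, 3 genes of the Isg15 system, 2 Parp genes and 4 Gbp and Irg genes. All but the receptor chains and the Gbp and Irg genes are called the antiviral type I genes below (29 measured of 32 listed).

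Interferons are secreted warning signals of infection. Type I interferons bind the Ifnar1 and Ifnar2 receptor chains, and the kinases on these chains activate Stat2, which joins Irf9 in a complex that binds the interferon-stimulated response element of target promoters. Interferon gamma acts through another receptor and at gamma-activated sites, and it is a strong inducer of the guanylate-binding proteins (Gbp) and the immunity-related GTPases (Irg). In the artery wall macrophages, endothelium and smooth muscle can all respond to interferons.

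The data are Affymetrix Mouse Gene 2.0 ST arrays, 1 for each of 10 whole aortas. One group of 5 aortas came from mice lacking both ApoE and IL-17 (double knockout), and the group it is set against, also 5, came from mice lacking ApoE alone (ApoE knockout). All 10 mice were C57BL/6-background males, 11 weeks old at collection, that had eaten a high fat diet for the last 3 weeks, starting at 8 weeks. Every animal thus lacked ApoE, the protein that lets the liver clear lipoprotein remnants from plasma, and no ApoE-sufficient group was compared. The deletions were present in the whole animal and not in 1 cell type. IL-17-deficient mice came from one laboratory and were crossed to purchased ApoE-deficient mice. The 2 groups carry different protocol texts, and that of the ApoE knockout names mice lacking ApoE and caspase-1 beside wild-type ones and no IL-17 deficiency. No scan date or batch is given in the sources used here, so a batch that runs with genotype cannot be told apart from it.

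Values are on a log2 scale, as judged from their range, and a change is the mean of the double knockout aortas minus that of the ApoE knockout aortas. The aortas had high levels of the smooth muscle gene Myh11 (12.66 ± 0.07 in double knockout, 12.27 ± 0.26 in ApoE knockout, mean log2 value ± SD, n = 5 each) and the endothelial gene Pecam1 (11.78 ± 0.17 and 12.06 ± 0.10). Il17a was near background in both groups (4.66 ± 0.17 and 4.41 ± 0.14), so it checks nothing about the genotype, and Apoe, deleted in both, still gave signal, 1.59-fold higher in the double knockout (6.98 ± 0.17 and 6.31 ± 0.16, limma adjusted p = 0.0011, no overlap). Background here means 5.80, below which 95% of 1432 chemosensory receptor genes (olfactory, vomeronasal or taste) had their mean. Isg15, Mx1, Mx2 and Gbp6 had both group means below it.

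Of the 35 genes, 9 were lower in the double knockout aortas at a limma adjusted p under 0.05, and 0 were higher (at an unadjusted p under 0.05, 14 were lower and 0 higher). Among all 22180 genes 7.53% were called lower and 22.8% higher. The 9 were Isg20, Rsad2, Irf7, Oas3, Ifit1, Ifih1, Cmpk2, Isg15 and Rtp4, all of the antiviral type I group. Negative changes were seen for 29 of the 35, against 36.1% of all genes, and the median log2 change was -0.33, against 0.10 over all genes. All genes include dim ones such as the chemosensory receptor genes, whose median change was 0.29. Among genes above background the median was -0.36 for the 31 members there, against 0.01 for all such genes. For 4 members, Isg20, Rsad2, Irf7 and Oas3, the groups did not overlap and the double knockout was lower, against 4.8% of all genes and 7.02% of those above background. Separation the other way was seen for 0 members and 15.6% of all genes. Among genes above background 10.9% were called lower. The count of 9 was sensitive to 1 array: without double knockout replicate 2 it rose to 18, the same 9 among them, with 8.68% of all genes then called lower. Leaving out any other single array gave 7 to 10. With each array centred on its own median, 22 members and 25.4% of all genes were lower. In whole tissue, fewer cells of a type and less RNA per cell cannot be told apart.

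**Figure D1:**
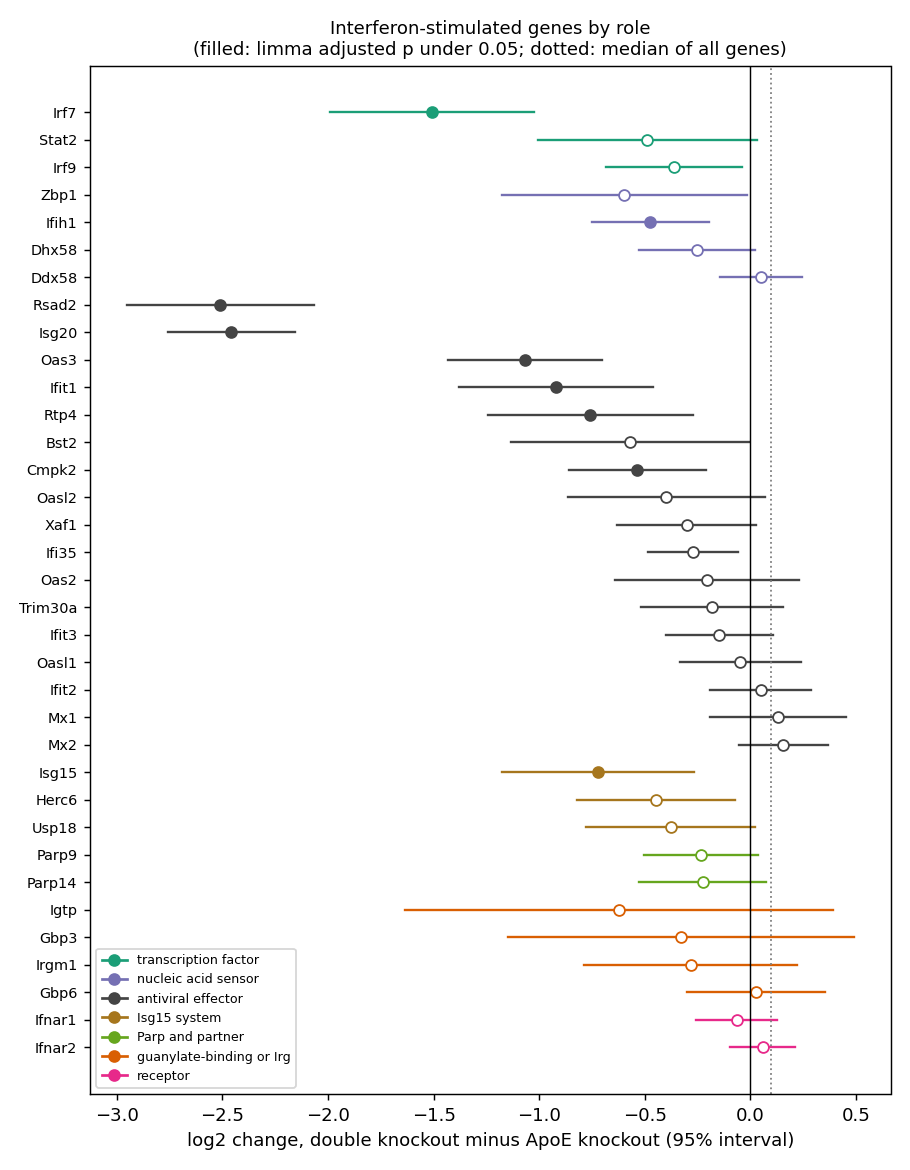
Log2 change (double knockout minus ApoE knockout, x axis) with its 95% interval for the 35 measured genes, coloured by role. Filled points are the 9 genes with a limma adjusted p under 0.05, the dotted line is the median of all genes (0.10), and Rsad2 and Isg20 lie farthest to the left.

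The receptor chains came first in the pathway and showed little difference. Ifnar1 had log2 values of 8.99, 9.39, 8.94, 9.03 and 9.16 in double knockout aortas 1 to 5, against 9.17, 9.21, 9.18, 9.17 and 9.11 in ApoE knockout aortas 1 to 5. Ifnar2, the chain that binds the ligand most tightly, had 10.76, 10.87, 10.68, 10.78 and 10.66 in the double knockout, against 10.81, 10.70, 10.73, 10.64 and 10.58 in the ApoE knockout. The groups overlapped for both. The change was -0.07 for Ifnar1 (95% interval -0.26 to 0.12, limma adjusted p = 0.59) and 0.06 for Ifnar2 (95% interval -0.09 to 0.21, limma adjusted p = 0.55).

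Among the 3 transcription factors only Irf7 passed the test. Irf7, which amplifies the type I response and is itself induced by it, had 7.17, 8.32, 7.10, 7.19 and 7.62 in double knockout aortas 1 to 5, against 8.94, 9.32, 8.66, 8.87 and 9.15 in ApoE knockout aortas 1 to 5. It was 2.84-fold lower (log2 change -1.51, SE 0.22, limma adjusted p = 0.00094), and double knockout replicate 2 came closest to the ApoE knockout range without entering it. Stat2, a subunit of the complex that type I interferon activates, had 7.23, 8.25, 7.15, 7.40 and 7.91 in the double knockout, against 7.89, 8.15, 7.99, 7.64 and 8.71 in the ApoE knockout. Double knockout replicate 2 was above 4 of the 5 ApoE knockout aortas, and the change of -0.49 did not pass (SE 0.24, limma adjusted p = 0.14). Irf9, the DNA-binding partner in that complex, had 7.99, 8.77, 7.99, 8.10 and 8.41 in the double knockout, against 8.46, 8.54, 8.69, 8.53 and 8.84 in the ApoE knockout. Replicate 2 was again above 4 of the 5, and the change of -0.36 did not pass either (SE 0.15, limma adjusted p = 0.084). Without double knockout replicate 2 both passed, with changes of -0.65 for Stat2 (limma adjusted p = 0.040) and -0.49 for Irf9 (limma adjusted p = 0.0093).

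Of the 4 sensors of viral nucleic acid, Ifih1 fell. Ifih1 encodes MDA5, which recognizes long double-stranded RNA, and had 8.18, 8.79, 8.11, 8.41 and 8.56 in double knockout aortas 1 to 5, against 8.75, 9.02, 8.80, 8.82 and 9.03 in ApoE knockout aortas 1 to 5. Only replicate 2 of the double knockout reached the ApoE knockout range, and Ifih1 was 1.39-fold lower (log2 change -0.47, SE 0.13, limma adjusted p = 0.017). Ddx58, which encodes the related sensor RIG-I, had a change of 0.05 (95% interval -0.15 to 0.25, limma adjusted p = 0.69). Dhx58, which encodes their regulator LGP2, had -0.25 (limma adjusted p = 0.14), and -0.38 without double knockout replicate 2 (limma adjusted p = 0.0058). Zbp1, a sensor of Z-form nucleic acid, had -0.60 (SE 0.27, limma adjusted p = 0.11), a value that was -0.38 without ApoE knockout replicate 5 (adjusted p = 0.20) and -0.78 without double knockout replicate 2 (adjusted p = 0.033), the arrays where Zbp1 was highest in each group.

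The antiviral effectors held the largest changes of the 35 genes. Rsad2 encodes viperin, a radical SAM enzyme that makes a chain-terminating nucleotide. Its log2 values were 9.11, 9.07, 8.13, 8.07 and 8.72 in double knockout aortas 1 to 5, against 11.03, 11.37, 10.95, 11.12 and 11.18 in ApoE knockout aortas 1 to 5. Isg20, an exonuclease that degrades single-stranded RNA, had 8.29, 8.42, 7.87, 7.99 and 8.40 in the double knockout, against 10.56, 11.02, 10.45, 10.52 and 10.70 in the ApoE knockout. The gap between the groups was wider than either group's range for both genes. Rsad2 was 5.70-fold lower (SE 0.20 on the log2 scale, limma adjusted p = 3.3e-05) and Isg20 5.49-fold lower (SE 0.14, limma adjusted p = 2.5e-06). Without these 2 genes, 7 of the other 27 antiviral type I genes fell and their median log2 change was -0.36.

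Genes of blood cells moved with genotype beside the interferon genes. Of 9 measured red cell genes 8 fell, and their mean log2 level ran from 7.12 to 7.62 in the double knockout, against 9.17 to 9.86 in the ApoE knockout. All 5 platelet genes, all 6 neutrophil genes, 4 of 5 B cell genes and 3 of 5 T cell genes were also lower. The mean level of the T cell genes overlapped between the groups, at 5.79 to 7.12 in the double knockout and 6.47 to 9.09 in the ApoE knockout. Natural killer cell genes had 3 of 6 lower and 2 higher, endothelial genes 2 of 6 lower, and smooth muscle genes 3 of 7 higher. Among all genes 7.53% were called lower and 22.8% higher, so the few higher genes of these lists say little about their cells. Rsad2 and Isg20 shared their order with the red cell genes in part: in the double knockout, replicates 3 and 4 were lowest in all 3 measures, and in the ApoE knockout replicates 2 and 5 were highest in all 3. Irf7 also had replicates 2 and 5 highest in the ApoE knockout, while in the double knockout its replicate 1 lay with replicates 3 and 4. The other blood cell lists differed in order. In the ApoE knockout, neutrophil genes also had replicates 2 and 5 highest (8.19 and 8.18). Platelet, B cell and T cell genes instead had replicate 5 lowest there (9.57, 7.02 and 6.47), though in the double knockout replicates 3 and 4 were their lowest too. With 2 separate groups of 5 aortas no correlation was computed, and the part of blood cells in the changes of Rsad2, Isg20 or Irf7 was not tested.

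**Figure D2:**
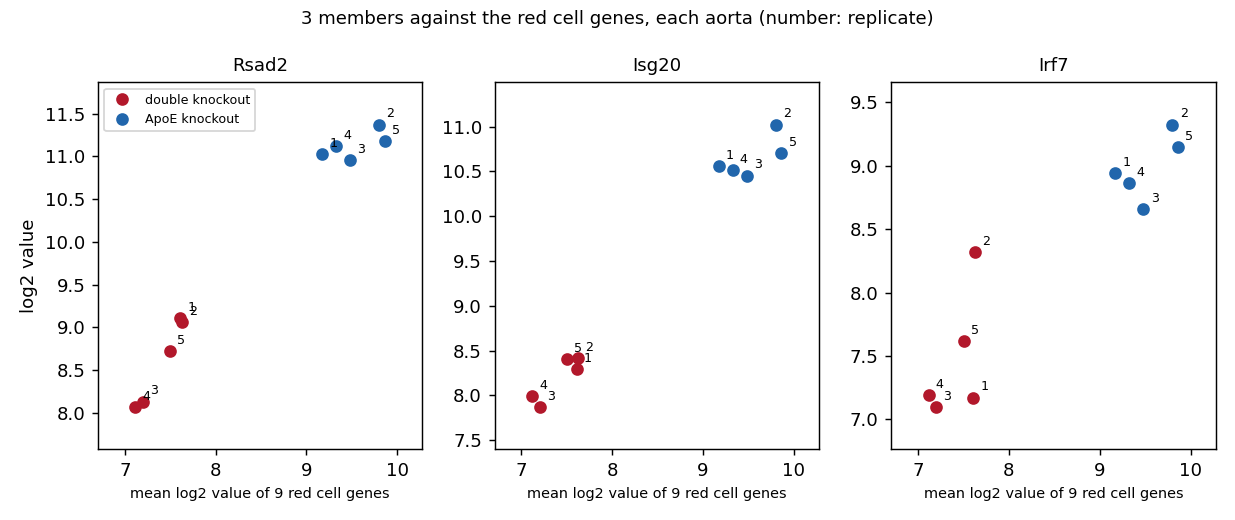
Log2 value of Rsad2, Isg20 and Irf7 (y axis) against the mean log2 value of 9 red cell genes (x axis) in each aorta, numbered by replicate, double knockout in red and ApoE knockout in blue. The genotypes form 2 separate clusters in each panel, and in the Irf7 panel double knockout replicate 2 (8.32) lies above the other 4.

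Oas3, an oligoadenylate synthetase that makes the activator of RNase L, had 6.54, 7.03, 6.31, 6.30 and 6.47 in double knockout aortas 1 to 5, against 7.37, 8.11, 7.44, 7.55 and 7.51 in ApoE knockout aortas 1 to 5. It was 2.10-fold lower (log2 change -1.07, SE 0.17, limma adjusted p = 0.0013), with no overlap. Ifit1, which binds viral RNA at its cap, had 7.66, 8.52, 7.41, 7.70 and 8.32 in the double knockout, against 8.99, 8.78, 8.47, 8.81 and 9.18 in the ApoE knockout, and only double knockout replicate 2 was above the lowest ApoE knockout aorta. It was 1.89-fold lower (log2 change -0.92, SE 0.21, limma adjusted p = 0.0083). Rtp4, an interferon-induced gene first known as a chaperone of receptors, had 7.27, 8.25, 6.87, 7.35 and 7.79 in the double knockout, against 8.25, 8.27, 7.97, 8.21 and 8.62 in the ApoE knockout. Only replicate 2 of the double knockout reached the ApoE knockout range. The 1.69-fold lower level (limma adjusted p = 0.025) was not called without double knockout replicate 1 (adjusted p = 0.056), double knockout replicate 4 (adjusted p = 0.055) or ApoE knockout replicate 5 (adjusted p = 0.052).

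**Figure D3:**
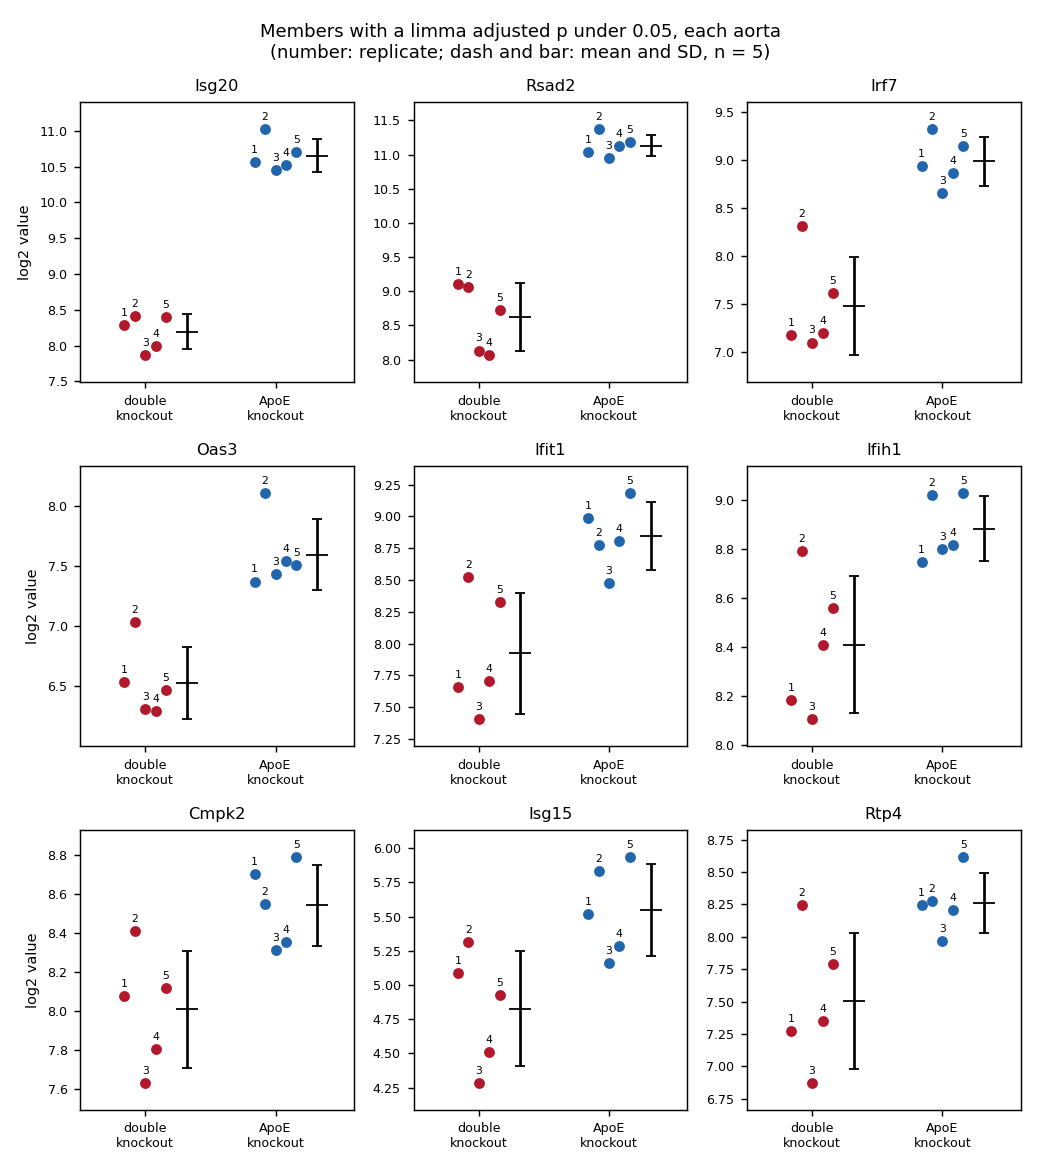
Log2 values in each aorta (numbered by replicate) for the 9 genes with a limma adjusted p under 0.05, double knockout in red and ApoE knockout in blue, with the mean and SD of 5 aortas. The groups are apart for Isg20, Rsad2, Irf7 and Oas3, and in the other 5 panels double knockout replicate 2 lies within the ApoE knockout range.

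Related and neighbouring effectors had changes of different size. Cmpk2, a mitochondrial nucleotide kinase, is the protein-coding gene next to Rsad2 on chromosome 12. It had 8.08, 8.41, 7.63, 7.80 and 8.12 in double knockout aortas 1 to 5, against 8.70, 8.55, 8.31, 8.35 and 8.79 in ApoE knockout aortas 1 to 5. Double knockout replicate 2 was above 2 ApoE knockout aortas and the other 4 were below all 5. Cmpk2 was 1.45-fold lower (log2 change -0.53, 95% interval -0.86 to -0.21, limma adjusted p = 0.019), where the 95% interval of Rsad2 was -2.95 to -2.07. The difference between these changes was not tested. Ifit2 and Ifit3, which encode partners of Ifit1 and lie side by side on chromosome 19, had changes of 0.05 (95% interval -0.19 to 0.29) and -0.15 (95% interval -0.40 to 0.11), and neither passed (limma adjusted p = 0.76 and 0.35). Oas2, the neighbour of Oas3 on chromosome 5, had a change of -0.21 (95% interval -0.64 to 0.23, limma adjusted p = 0.45). Signal from near-identical copies such as Ifit3b may enter these probe sets, so such values are uncertain.

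The other effectors did not pass with all 10 aortas. Oasl1 and Oasl2, oligoadenylate synthetase-like genes next to each other on chromosome 5, had changes of -0.05 and -0.40 (limma adjusted p = 0.8 and 0.17). Bst2, which encodes tetherin and holds budding virus at the cell surface, had -0.57 (SE 0.26, limma adjusted p = 0.11), or -0.33 without ApoE knockout replicate 5 (adjusted p = 0.20) and -0.73 without double knockout replicate 2 (adjusted p = 0.045), the highest array of each group. Oasl2, Xaf1 and Ifi35 also passed without double knockout replicate 2 (limma adjusted p = 0.037, 0.048 and 0.037). Mx1, a dynamin-like GTPase gene that carries a disrupting deletion in most laboratory mouse strains, had 4.51, 4.92, 4.41, 4.00 and 4.44 in the double knockout, against 4.45, 4.55, 4.23, 4.15 and 4.25 in the ApoE knockout, all below the background level. The changes of Mx1 (0.13) and of its paralog Mx2 (0.16) therefore say little. Xaf1, an inducer of cell death (-0.30), and Trim30a, a ring finger regulator of inflammatory signaling (-0.18), also did not pass (limma adjusted p = 0.14 and 0.39). Ifi35, which forms a complex with Nmi, had 2 probe sets that went opposite ways: the brighter one had a change of -0.27 (limma adjusted p = 0.055) and the other 0.32.

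In the Isg15 system, which tags proteins with a ubiquitin-like modifier, 1 of 3 genes passed. Isg15, the modifier, had 5.09, 5.31, 4.29, 4.51 and 4.93 in double knockout aortas 1 to 5, against 5.52, 5.83, 5.16, 5.28 and 5.93 in ApoE knockout aortas 1 to 5. Its change of -0.72 (SE 0.21, limma adjusted p = 0.023) rests on values below the background level in 8 of 10 aortas. It was not called without double knockout replicate 3 (adjusted p = 0.050, just above the threshold) or 4 (adjusted p = 0.056) or ApoE knockout replicate 2 (adjusted p = 0.055). Usp18, which removes the modifier and dampens the type I receptor, had 7.85, 8.59, 7.33, 7.71 and 7.88 in the double knockout, against 8.16, 8.28, 8.27, 8.14 and 8.40 in the ApoE knockout. Replicate 2 was the highest of all 10 aortas, and the change of -0.38 did not pass (SE 0.18, limma adjusted p = 0.14), while without replicate 2 it was -0.56 (limma adjusted p = 0.0065). Herc6, the mouse ligase of the modifier, had -0.45 (SE 0.17, limma adjusted p = 0.067). Parp9 and Parp14, interferon-induced members of the ADP-ribosyltransferase family, had -0.23 and -0.23 (limma adjusted p = 0.17 and 0.22).

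The promoters of the 4 called antiviral genes with the smallest p, and of Igtp from the Gbp and Irg group, are printed to show the elements through which both interferon types are known to act. They are 250 bases before the annotated start (RefSeq, GRCm38.p6), 5′ to 3′ on the gene's strand, and for Isg20 the most upstream of 3 listed starts was taken. Capitals mark matches on either strand to GAAA, any 2 bases and GAAA, the core of the interferon-stimulated response element, or to TTCNNNGAA, the core of the gamma-activated site.
Isg20 (chr7:78913174-78913423, plus strand): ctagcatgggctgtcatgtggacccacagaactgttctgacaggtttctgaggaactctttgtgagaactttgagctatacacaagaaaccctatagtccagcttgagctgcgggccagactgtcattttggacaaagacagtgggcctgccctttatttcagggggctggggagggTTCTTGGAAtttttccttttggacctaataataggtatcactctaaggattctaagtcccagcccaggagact
Rsad2 (chr12:26456453-26456702, minus strand): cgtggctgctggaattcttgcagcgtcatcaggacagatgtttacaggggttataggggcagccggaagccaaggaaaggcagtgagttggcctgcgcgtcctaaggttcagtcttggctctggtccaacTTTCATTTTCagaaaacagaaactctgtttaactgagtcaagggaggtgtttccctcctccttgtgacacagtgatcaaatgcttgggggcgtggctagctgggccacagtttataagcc
Irf7 (chr7:141266425-141266674, minus strand): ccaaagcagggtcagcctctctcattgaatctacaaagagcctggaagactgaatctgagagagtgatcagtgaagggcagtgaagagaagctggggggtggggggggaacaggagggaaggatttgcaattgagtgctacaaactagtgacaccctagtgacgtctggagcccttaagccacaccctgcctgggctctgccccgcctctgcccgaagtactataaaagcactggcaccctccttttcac
Oas3 (chr5:120777660-120777909, minus strand): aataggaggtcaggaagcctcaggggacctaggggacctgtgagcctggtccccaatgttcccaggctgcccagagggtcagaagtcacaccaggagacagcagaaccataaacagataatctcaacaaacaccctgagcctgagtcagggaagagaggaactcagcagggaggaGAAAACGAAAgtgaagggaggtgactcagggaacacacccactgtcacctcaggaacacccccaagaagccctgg
Igtp (chr11:58199306-58199555, plus strand): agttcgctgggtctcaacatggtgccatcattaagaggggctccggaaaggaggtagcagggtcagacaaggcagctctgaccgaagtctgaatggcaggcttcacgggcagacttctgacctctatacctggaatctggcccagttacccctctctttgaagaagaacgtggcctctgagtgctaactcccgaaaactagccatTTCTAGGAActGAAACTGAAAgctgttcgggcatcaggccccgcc
Rsad2 has a response element core in antisense orientation from base -120 to -111, where -1 is the last base before the start. Oas3 has one in sense orientation from -75 to -66. Igtp has one from -34 to -25 and a gamma-activated core from -45 to -37. Isg20 has only the gamma-activated core, from -73 to -65, and Irf7 has neither in these letters.

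Counted over 250 bases before to 50 after every listed start, the response element core was present in 15 of the 29 members with a promoter in the table (51.7%), against 3.99% of all 27025 genes. It was present in 5 of 8 called members (Rsad2, Ifit1, Isg15, Oas3 and Ifih1) and in 8 of 17 measured members that were not called, among them Gbp3, Igtp, Irgm1, Stat2 and Ddx58. All 4 Gbp and Irg genes with a promoter in the table had it: Gbp3, Igtp, Irgm1 and Gbp2, whose level was not analysed. Gbp6 had no promoter there. The gamma-activated core, which is palindromic and was counted once per position, was present in 8 of 29 members (27.6%) and in 9.55% of all genes. A match describes letters in a window and not a bound site.

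None of the 4 measured Gbp and Irg genes passed (0 also at an unadjusted p under 0.05 by limma), where 9 of the 29 antiviral type I genes did. Among all genes 7.53% were called lower, and 10.9% of those above background, so 0 of 4 says little about these genes. The median log2 change was -0.30 for the Gbp and Irg genes and -0.38 for the antiviral type I genes, and the difference between the lists was not tested. Igtp, which encodes Irgm3, a GTPase of the endoplasmic reticulum and lipid droplets, had 7.93, 9.35, 7.84, 8.33 and 9.39 in double knockout aortas 1 to 5, against 8.76, 8.59, 8.75, 8.94 and 10.91 in ApoE knockout aortas 1 to 5. ApoE knockout replicate 5 stood far above the other 9 aortas. The change of Igtp was -0.62 (SE 0.46, limma adjusted p = 0.32) with all aortas and -0.19 (SE 0.32) without that replicate.

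Gbp3, a guanylate-binding protein that coats intracellular pathogens, had 6.85, 7.37, 6.38, 6.97 and 7.59 in the double knockout, against 6.88, 6.96, 6.99, 7.06 and 8.91 in the ApoE knockout. Irgm1, a regulator of the Irg family and of autophagy, had 6.41, 7.06, 6.32, 6.71 and 7.13 in the double knockout, against 6.79, 6.91, 6.65, 6.86 and 7.84 in the ApoE knockout. In both genes ApoE knockout replicate 5 was the highest aorta and the other 4 ApoE knockout aortas lay inside the double knockout range. The change of Gbp3 was -0.33 (SE 0.37, limma adjusted p = 0.53) and became 0.06 without replicate 5, and that of Irgm1 was -0.28 (SE 0.23, limma adjusted p = 0.37) and became -0.07. Gbp6, near background, had 3.54, 3.64, 3.36, 4.07 and 3.94 in the double knockout, against 3.78, 3.66, 4.03, 3.45 and 3.49 in the ApoE knockout, and the groups overlapped (change 0.02, limma adjusted p = 0.91). Probe sets of related Gbp copies may share signal.

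Without ApoE knockout replicate 5 the median of the 4 Gbp and Irg genes was -0.05 and that of the antiviral type I genes -0.30, with 8 of 29 antiviral genes called. Replicate 5 exceeded the mean of the other 4 ApoE knockout aortas by a median of 1.49 in the Gbp and Irg genes and of 0.20 in the antiviral type I genes, against 0.02 over all genes. Among all genes, 50 were at least 1 higher in replicate 5 than in the mean of the other 4, and 17 of these 50 stood in the interferon lists used here (146 measured genes), 5 of them members. In ApoE knockout replicates 1 to 4 none of those 146 genes was that far above the other aortas. In double knockout replicate 2, 113 genes were that far above the other 4 of their group, and 5 of these stood in the interferon lists. In double knockout replicate 5 it was 4 of 20, and in double knockout replicates 1, 3 and 4 it was 0.

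**Figure D4:**
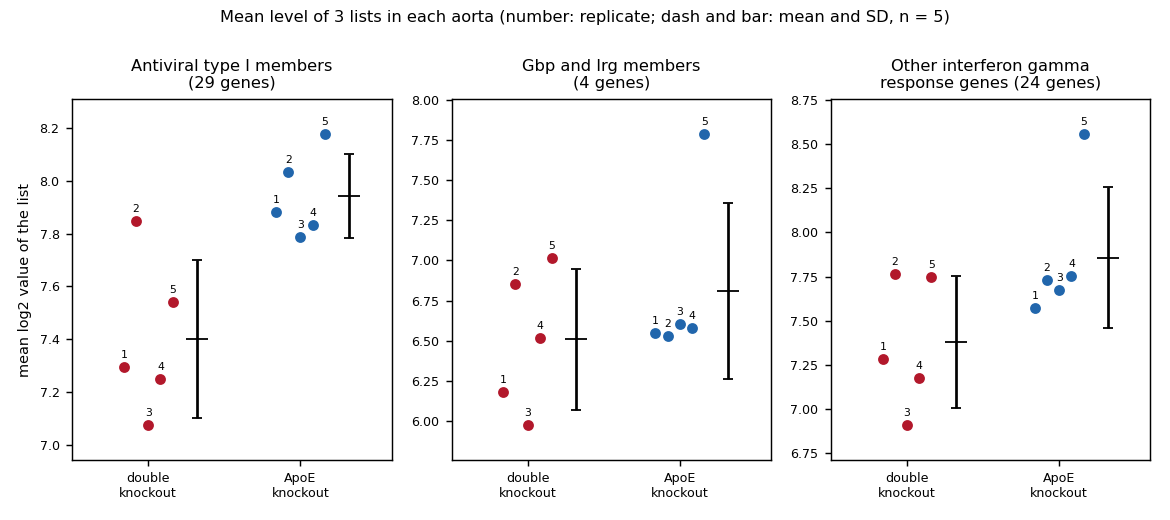
Mean log2 value in each aorta (numbered by replicate) of the 29 antiviral type I members, the 4 Gbp and Irg members and 24 other interferon gamma response genes, double knockout in red and ApoE knockout in blue, with mean and SD. ApoE knockout replicate 5 (7.79) stands apart in the middle panel, where the other 4 ApoE knockout aortas lie between 6.53 and 6.61.

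The double knockout aortas differed among themselves in a pattern that ran through most members. Replicate 2 was the highest double knockout aorta in 25 of 29 antiviral type I genes, and replicate 3 the lowest in 21 of 29. Replicate 2 exceeded the mean of the other 4 by a median of 0.58 in these genes, against -0.01 over all genes, and in the Gbp and Irg genes replicate 5 was highest in 3 of 4. The mean level of the antiviral type I genes was 7.29, 7.85, 7.08, 7.25 and 7.54 in double knockout aortas 1 to 5, against 7.88, 8.03, 7.79, 7.83 and 8.18 in ApoE knockout aortas 1 to 5. Replicate 2 alone of the double knockout lay within the ApoE knockout range. For the Gbp and Irg genes the means were 6.18, 6.85, 5.98, 6.52 and 7.01 in the double knockout, against 6.55, 6.53, 6.61, 6.58 and 7.79 in the ApoE knockout, so that double knockout replicates 2 and 5 exceeded 4 of the 5 ApoE knockout aortas.

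**Figure D5:**
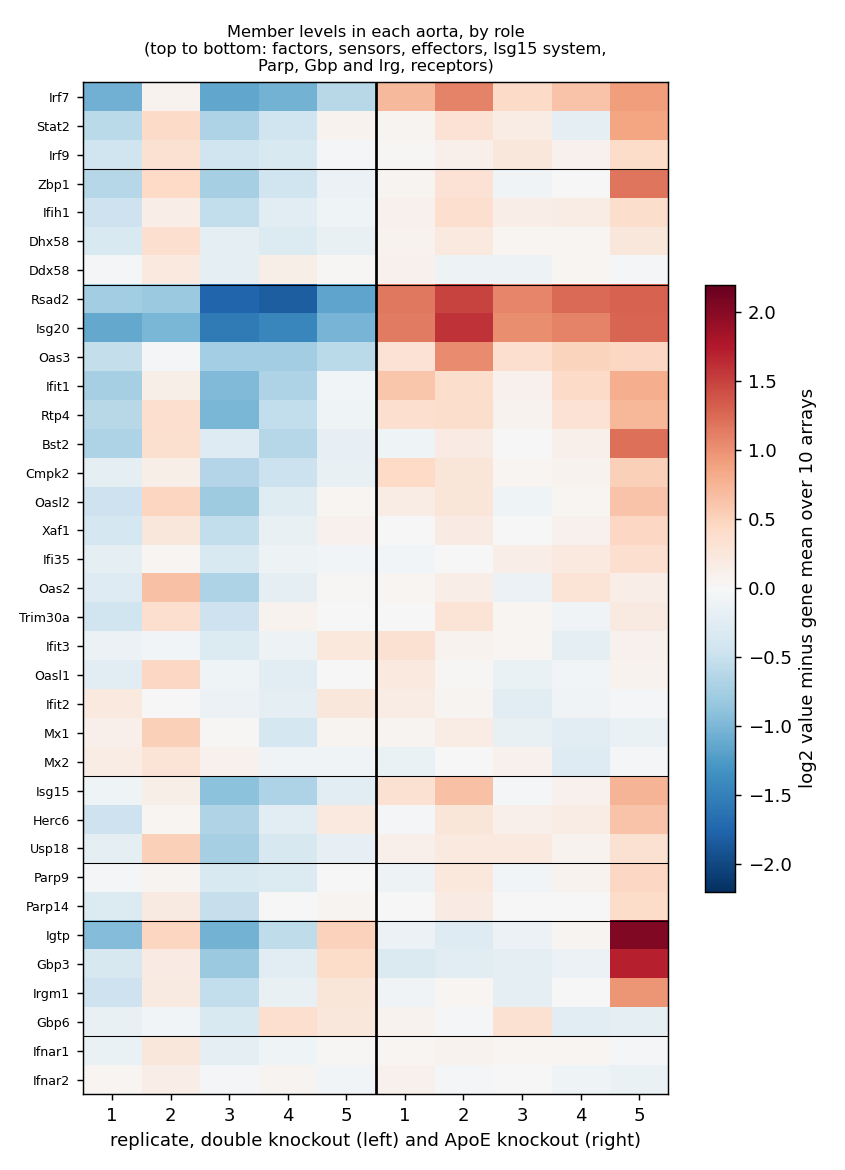
Log2 value of each of the 35 genes in each aorta minus the gene's mean over the 10 arrays (red above, blue below), with double knockout replicates 1 to 5 on the left, ApoE knockout replicates 1 to 5 on the right, and black lines between roles. Rsad2 and Isg20 are blue in all 5 double knockout aortas and red in all 5 ApoE knockout aortas, Igtp, Gbp3 and Irgm1 are highest in ApoE knockout replicate 5, and double knockout replicate 2 is red or near white in most antiviral genes.

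Interferon response genes outside the 35 were read from further lists. Of 40 other measured type I response genes, 8 fell and 2 rose (20% lower, against 7.53% of all genes), with a median log2 change of -0.12. The 4 with the smallest p were Slfn1, a Schlafen family gene (log2 change -0.58, SE 0.12, limma adjusted p = 0.0059), Phf11b (-0.73, SE 0.18, adjusted p = 0.01), the nuclear body gene Sp100 (-0.55, SE 0.13, adjusted p = 0.01) and Ms4a4c (-1.11, SE 0.30, adjusted p = 0.017). The groups did not overlap for Slfn1 and Sp100, and double knockout replicate 2 was the highest of its group for Phf11b, Sp100 and Ms4a4c. Cxcl10, an interferon-induced chemokine, had 7.17, 7.09, 5.58, 6.36 and 8.08 in the double knockout, against 6.80, 6.54, 6.52, 6.85 and 7.89 in the ApoE knockout. Replicate 5 was highest in each group, and the change of -0.06 did not pass (95% interval -0.97 to 0.84, limma adjusted p = 0.92).

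Of 24 other measured interferon gamma response and GTPase genes, 3 fell and 0 rose. The 12.5% lower compares with 7.53% of all genes and 10.9% of those above background. Negative changes were seen for 23 of 24, against 36.1% of all genes, dim ones included. The median was -0.56, against 0.10 over all genes and 0.01 over those above background. Psmb8 and Psmb10, catalytic subunits of the immunoproteasome, had log2 changes of -0.64 and -0.42 (SE 0.15 and 0.11, limma adjusted p = 0.0085 and 0.018), and Gbp9 had -0.67 (SE 0.23, adjusted p = 0.046). ApoE knockout replicate 5 was the highest ApoE knockout aorta in 20 of the 24, and in 9 it was at least 1 above the next. Iigp1, an Irg effector, had 7.94, 9.47, 7.40, 8.09 and 9.27 in the double knockout, against 8.78, 8.49, 8.84, 8.86 and 10.80 in the ApoE knockout. Gbp10 had 7.86, 8.45, 7.43, 7.67 and 8.40 in the double knockout, against 8.01, 8.49, 8.26, 8.55 and 10.54 in the ApoE knockout. Both were chosen after their values were seen, and both show replicate 5 of the ApoE knockout alone above the rest.

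The pattern of ApoE knockout replicate 5 did not extend to every interferon gamma target. Irf1, an early target of interferon gamma, had 7.94, 7.96, 7.60, 7.76 and 8.03 in the double knockout, against 7.84, 7.89, 7.88, 7.87 and 8.60 in the ApoE knockout, and replicate 5 was again the highest aorta. The T cell chemokine gene Cxcl9, by contrast, had 8.29, 7.72, 7.64, 7.71 and 9.13 in the double knockout, against 8.50, 8.45, 8.19, 8.60 and 8.11 in the ApoE knockout, where replicate 5 was the lowest, and it too was picked with its values seen. Neither gene passed between the genotypes (limma adjusted p = 0.43 and 0.43).

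Of the interferons, Ifng and Ifnb1 gave little signal. Ifng had 5.20, 5.59, 5.28, 5.18 and 5.47 in the double knockout, against 5.28, 5.29, 5.20, 5.26 and 5.46 in the ApoE knockout, and Ifnb1 had 3.70, 3.72, 4.03, 3.96 and 3.80 in the double knockout, against 3.85, 2.84, 3.39, 3.91 and 3.78 in the ApoE knockout, all below the background level. In the list of interferons, receptors and kinases 2 of 24 genes fell and 5 rose, against 7.53% and 22.8% of all genes, and 12 of the 24 had both group means near background. The genes with the smallest p were the alpha interferons Ifna4 (log2 change 0.47, limma adjusted p = 0.0043), Ifna7 (0.49, adjusted p = 0.015) and Ifna1 (0.41, adjusted p = 0.02), and Il10rb. Mean levels in double and ApoE knockout were 7.44 and 6.97 for Ifna4, 6.33 and 5.84 for Ifna7, and 8.37 and 7.97 for Ifna1. All were above the background level. The groups did not overlap for Ifna4 and Ifna1, as for 15.6% of all genes in that direction. The alpha interferons are near-identical copies that may share signal. Il10rb, a chain of the receptor for type III interferon and interleukin 10, fell by 0.51 on the log2 scale (SE 0.12, limma adjusted p = 0.0089). Receptor genes used for the background level had a median change of 0.29, so small increases of dim genes are read with that shift beside them.

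Of 15 measured genes of sensing and adaptor proteins, 0 fell and 2 rose (2 and 2 at an unadjusted p under 0.05), against 7.53% and 22.8% of all genes. The 2 were Tlr4, the receptor for endotoxin (log2 change 0.30, SE 0.07, limma adjusted p = 0.01), and Irf3, the factor that starts interferon production (0.23, SE 0.08, adjusted p = 0.04). Of 10 negative regulators, 2 fell and 1 rose. Ptpn6, which encodes the blood cell phosphatase SHP-1, fell by 0.73 (SE 0.20, limma adjusted p = 0.019), the ubiquitin ligase gene Rnf125 fell by 0.34 (SE 0.09, adjusted p = 0.017), and Pias3, an inhibitor of Stat3, rose by 0.29 (SE 0.07, adjusted p = 0.0086).

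Markers of cells that respond strongly to interferons were set beside the members. Macrophage genes had 1 of 8 lower, with mean levels of 9.30 to 10.07 in the double knockout, against 9.62 to 10.04 in the ApoE knockout, and 0 of 6 monocyte genes passed (2 lower at an unadjusted p under 0.05 by limma), with mean levels of 7.16 to 8.19 in the double knockout, against 7.60 to 7.91 in the ApoE knockout. Double knockout replicate 2 was the highest and replicate 3 the lowest of the 5 in both lists, the order seen in most antiviral type I genes. The ApoE knockout aortas did not share an order in this way. Their macrophage genes were highest in replicate 3 (10.04) and lowest in replicate 5 (9.62), and their monocyte genes highest in replicate 2 (7.91) and lowest in replicate 4 (7.60). Of the antiviral type I genes there, replicate 5 was highest in 17 of 29 and replicate 3 lowest in 13. Plasmacytoid dendritic cells, a main source of type I interferon, had 1 of 6 markers lower (3 at an unadjusted p under 0.05 by limma). Among all genes 7.53% were called lower. Of these 6 markers 3 had negative changes, and the median change was -0.28. Their mean levels were 5.67 to 5.98 in the double knockout and 5.99 to 6.43 in the ApoE knockout. Bst2, itself a member, is 1 of the 6. The marker Siglech had 6.52 ± 0.19 in the double knockout and 6.51 ± 0.18 in the ApoE knockout (change 0.005, limma adjusted p = 0.97). In ApoE knockout replicate 5, T cell genes (6.47) were the lowest and neutrophil genes (8.18) near the highest of that group (6.47 to 9.09 and 6.89 to 8.19). The part of these cells in the member changes was not tested.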

How the data were processed

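The authors deposited 1 value per probe set and array for 41345 probe sets on 10 arrays, taken as log2 from their range of 0.80 to 13.88. limma is the only tool listed, per the submitters' processing notes, and neither its version nor how probes were corrected, normalized or summarized is stated in the sources used here. Array medians were 5.76 to 6.03. The titles call the 5 aortas of each group biological replicates, and 5 arrays per group limit the precision.

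A single gene symbol was listed for 23521 probe sets, more than 1 for 1814, which were given no name, and none for 16010. By gene ID, 23328 of the named probe sets were matched to the RefSeq gene table of GRCm38.p6. Where a gene had more than 1 probe set, that of highest mean level stood for it, which left 22180 genes, unfiltered. They were tested with lmFit and eBayes (limma 3.58.1, R 4.3.3), group as the only term, two-sided, with Benjamini-Hochberg adjustment over all genes and a threshold of 0.05. Changes are double knockout minus ApoE knockout. The fit was tested on simulated data. Promoters and chromosomes are from RefSeq (GRCm38.p6). Figures used matplotlib 3.10.9.

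The members and lists were chosen with earlier results of these data known. Values in every array are given for called members, the receptor chains, the Gbp and Irg genes, and Stat2, Irf9, Isg15, Mx1 and Usp18. From each other list up to 4 called genes with the smallest p are named, with Ifng, Ifnb1, Irf1 and Cxcl10 always. 1 further gene is not reported here. Of the marker lists (9 measured red cell genes among them) counts and mean levels are used, and Myh11 and Pecam1 are named as checks of the tissue. Siglech is named as a marker of plasmacytoid dendritic cells, and Bst2 because it is a member. Alternatives covered filters, normalization, probe set rule, prior, array weights, replicate number as a block, thresholds and leaving out each array.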

Additional observations from a re-analysis of the deposited data

Results flagged for a closer look

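A value was marked where it stood apart from the other 4 of its group, by a gap to the nearest over 0.71 of the group's range (Dixon's 95% critical value for 5). Of 114 groups of 5 values so examined, 11 were marked, where chance gives about 1 in 20 for independent groups. The groups were not independent, since genes of 1 aorta can move together. The mean of the Gbp and Irg genes also includes Igtp, Gbp3 and Irgm1. The count is therefore no test against chance. In 7 of the 11 the array was ApoE knockout replicate 5, which was the highest of its group: Igtp at 10.91 (next 8.94), Gbp3 at 8.91 (next 7.06), Irgm1 at 7.84 (next 6.91), Bst2 at 7.83 (next 6.78), Irf1 at 8.60 (next 7.89), Cxcl10 at 7.89 (next 6.85) and the mean of the Gbp and Irg genes at 7.79 (next 6.61). The others were Oas3 in ApoE knockout replicate 2, highest at 8.11, Ms4a4c in ApoE knockout replicate 3, lowest at 5.37, Dhx58 in double knockout replicate 2, highest at 7.46, and Ifna7 in double knockout replicate 2, lowest at 5.94.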

How the results depend on the processing

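Lower levels of Isg20, Rsad2, Irf7, Oas3 and Ifit1 were called under each alternative run. The count of 9 lower members became 22 after centring each array on its median (21 of the antiviral type I genes), a setting that moved the median change of all genes to -0.11, from 0.10 as deposited, and under which 25.4% of all genes were lower. It was 9 after quantile normalization (11.2% of all genes), 5 at an adjusted p of 0.01 (5 antiviral) and 7 to 18 with 1 array left out, as for the antiviral type I genes. With the replicate number as a block it was 12, Stat2, Zbp1 and Herc6 being added. The numbers were taken not to pair the aortas, since deviations from the group means correlated over 0.1 in 3 of the 5 same-numbered pairs (0.26, 0.20 and 0.14) and at 0.06 and -0.13 in the others, and those 2 correlated better with another number. No member was higher, and no Gbp or Irg gene was called, under any alternative run. The antiviral median ran from -0.51 to -0.25 and the Gbp and Irg median from -0.43 to -0.05 with 1 array left out.

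Over the other pathway lists, 15 genes were lower and 10 higher. These lists and the members together held 146 measured genes. Among all genes 7.53% were lower and 22.8% higher, and after centring 25.4% were lower. The lower count was 38 after centring, 26 with the replicate block, 3 at an adjusted p of 0.01, 6 at 1.5-fold and 9 to 25 with 1 array left out. The higher count was 6 after quantile normalization, 1 after centring, 2 at an adjusted p of 0.01, 0 at 1.5-fold and 5 to 9 with 1 array left out. With the median of the receptor genes as the background level, 1 member in place of 4 lay below it.

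Uncalled changes near 0 turned sign. After quantile normalization they were -0.076 for Ifit2, -0.14 for Mx1, -0.087 for Mx2 and -0.24 for Gbp6. After centring they were -0.16 for Ifit2, -0.073 for Mx1, -0.048 for Mx2, -0.15 for Ddx58, -0.18 for Gbp6 and -0.15 for Ifnar2. Ifi35 was 0.026 as the mean of its probe sets. With 1 array left out Oasl1 ran from -0.17 to 0.0084, Gbp6 from -0.064 to 0.11, Ifit2 from -0.0088 to 0.10 and Gbp3 from -0.47 to 0.060. Centring takes 1 value from every gene of an array, so it moved the changes of all genes by the same amount. Why changes turned sign under quantile normalization was not tested.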

Other observations

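ApoE knockout replicate 5 and double knockout replicate 2 were read over all genes, with genes chosen after their values were seen. In ApoE knockout replicate 5, the gene farthest above the mean of the other 4 aortas was Gm12250, by 2.72 on the log2 scale, and 5 of the 10 farthest were in the interferon lists: Gbp10 (2.21), Igtp (2.15), Iigp1 (2.06), Gbp4 (1.95) and Gbp3 (1.94). The same 10 held Apol9b, an apolipoprotein L family gene (1.98). In double knockout replicate 2, the farthest was Oas1g, an oligoadenylate synthetase gene, by 2.07. After it came Mmp13, a collagenase gene (2.03), Myl7, an atrial myosin light chain gene (1.94), and Il7r, the interleukin 7 receptor gene (1.89). The 10 also held the chemokine gene Ccl3 (1.65) and the acute phase gene Saa3 (1.64).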
